A study of Arabidopsis thaliana with 14 samples.

Results

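RNA of wild-type Col plants was read in 3 of the 14 libraries of the study, and these 3 libraries (Col replicates 1, 2 and 3) are described here with no mutant contrast. They were chosen by their labels: Arabidopsis thaliana of the cultivar Col-0, wild type, seedlings grown for 14 days under long days. Each library lists 33602 genes as RPKM (reads of a gene per kilobase of its exons, scaled to the mapped reads of the library), a unit that allows genes of unlike length to be compared. The libraries hda6-6, hda5-1 and hda9-1, with 3 libraries each of Col-0 plants of the same age and day length, are used only to set the spread between Col libraries beside that of other groups. They are labelled as mutants of the histone deacetylase genes HDA6, HDA5 and HDA9, and hda6-6 carries a splice-site point mutation. The labels call the tissue seedling and do not say whether the 3 libraries came from separate cultures, while the methods state biological repeats for Col and hda6-6. The hour of harvest is not given in the sources used here. The spread between libraries holds plants, harvest and library preparation together. The RNA is bulk RNA, so that fewer cells of a type and less RNA per cell cannot be told apart.

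A young Arabidopsis plant is mostly green leaf. Its leaf cells hold chloroplasts, whose light-harvesting antennae and photosystems are built from subunits encoded partly in the nucleus and partly in the chloroplast genome, and the enzyme Rubisco fixes carbon dioxide with small subunits from nuclear genes. The libraries were made from RNA bound to poly-T beads, which favours nuclear mRNA over ribosomal and organelle RNA.

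Between 17570 and 17852 genes were above an RPKM of 1 in a single library, and 17088 genes (50.9% of those listed) were above it in all 3. At RPKM 10 the number in all 3 was 7490, at 100 it was 979 and at 1000 it was 76. A further 8857 genes were listed at 0 in all 3 libraries. Depth was estimated by setting low RPKM values against steps of whole reads, which gave 23570000 mapped reads in replicate 1, 21626000 in replicate 2 and 21754000 in replicate 3. The estimate is rough, since 20.7, 19.6 and 19.35% of the low values fell within 0.02 of a whole read at these totals, against a median of 3.41 to 3.50% over the totals tried. The summed RPKM was 778939, 773035 and 785872. No value above 0 was shared between any pair of libraries, so no library was a copy of another. Centred on the mean of the 3 libraries, the median gene lay at -0.02, 0.05 and -0.02 on the log2 scale, so the libraries were used as scaled by the authors.

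The leading transcripts were those of photosynthesis. LHCB1.3 (CAB1, AT1G29930), one of the genes for the main chlorophyll-binding protein of the photosystem II antenna, was at 34934.5, 33287 and 39264 RPKM in replicates 1, 2 and 3, a mean of 35829 ± 3087 (SD, n = 3). It alone held 4.48, 4.31 and 4.996% of the summed RPKM. LHCB1.5 (LHB1B2, AT2G34420), a second member of that family, followed at 15215, 16196 and 20194. Replicate 3 was the highest of the 3 libraries for both. PSBR (AT1G79040), a small subunit of photosystem II, was at 9201, 9204 and 10549, and RBCS1A (AT1G67090), the most abundant Rubisco small subunit gene, was at 6903, 8138 and 7924.

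Of the 25 genes with the highest mean, 14 encode light-harvesting proteins, 2 encode Rubisco small subunits, and 6 belong to the list of nuclear photosystem and electron transport subunits. The other 3 stood in no list: THI1 (AT5G54770), which encodes the thiazole synthase of thiamine synthesis and ranked 14 at 4859 ± 447 (SD, n = 3), and the photosystem II subunit genes PSBW (AT2G30570) and PSBX (AT2G06520). LHCB2.1 (AT2G05100) was the last of the 25, at 3717, 3113 and 4319. RCA (AT2G39730), which encodes Rubisco activase, came next at 3856, 3276 and 3651, a range that overlaps that of LHCB2.1. Within each library the 25 highest genes were nearly the same set: 23 genes stood among them in all 3 libraries and 28 in at least 1.

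**Figure D1:**
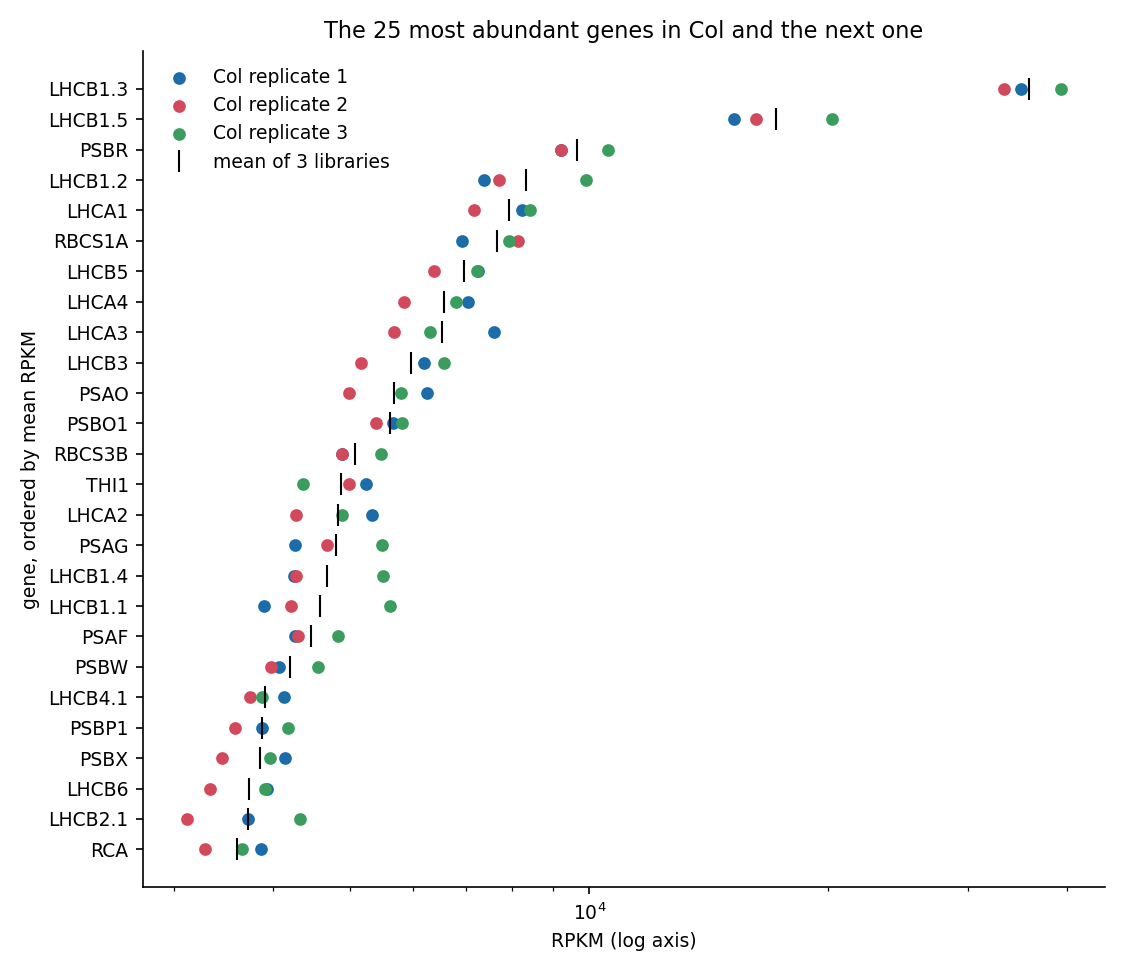
RPKM of the 25 most abundant genes and the next one in Col, on a log axis, with 1 point per library and a bar at the mean of 3. LHCB1.3 stands apart at a mean of 35829, and the libraries of most other genes lie close together between 3113 and 20194.

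The 10 most abundant genes held 14.1, 13.5 and 15.7% of the summed RPKM (mean 14.4 ± 1.1, SD, n = 3) and the 100 most abundant held 38.7 ± 1.83% (SD, n = 3). Between 235 and 317 genes made up the upper 50% of the sum, and 5299 to 5715 made up 90%. The 4 lists of nuclear photosynthesis genes with 70 members together held 28.1, 26.8 and 30.5%. All 3 shares were lowest in replicate 2 and highest in replicate 3.

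Members of one photosynthesis family differed widely in level. The 3 neighbouring genes LHCB1.1 (CAB2, AT1G29920), LHCB1.2 (CAB3, AT1G29910) and LHCB1.3 lie within chr1:10472280-10479114 of the TAIR10.1 annotation, with coding sequences of 804 bases. LHCB1.3 differs from LHCB1.2 at 29 of these bases and from LHCB1.1 at 31. Their means were 4572, 8321 and 35829 RPKM. Reads that could belong to more than 1 of these near copies were placed by the authors' counting, so the split between them is uncertain. LHCB4.1 (AT5G01530), for a minor antenna protein of photosystem II, was at 3907, and LHCB4.3 (AT2G40100) at 4.50 ± 1.26 (SD, n = 3), the lowest of the 20 light-harvesting genes. LHCA5 and LHCA6, genes of photosystem I antenna proteins of low abundance, were at 94.2 and 89.3. Among the Rubisco small subunit genes, RBCS1A and RBCS3B (7655 and 5070) lay above RBCS2B (1208) and RBCS1B (557), with no overlap between neighbours in that order over the 3 libraries.

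Outside photosynthesis, the metallothionein gene MT2B (AT5G02380) was at 3564 ± 152 (SD, n = 3), TCTP (AT3G16640), for the translationally controlled tumour protein, at 3311 ± 297, and GRP7 (AT2G21660), for a glycine-rich RNA-binding protein, at 3114 ± 379 (each n = 3). CCL (AT3G26740) was at 2731, 2712 and 2683, with the smallest SD on the log2 scale of the 50 most abundant genes. CCL was singled out after its values were seen.

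The levels of the other lists give a picture of the plant sampled. The list medians ran from 4623 RPKM for the light-harvesting genes through 676 for the Calvin cycle and photorespiration and 373 for aquaporins to 0 for seed markers, beside a median of 1.403 over all listed genes. AGT1 (AT2G13360), a photorespiratory aminotransferase gene, had the highest level of the Calvin cycle and photorespiration list at 1735.3 ± 221 (SD, n = 3). TIP1;2 (AT3G26520), for a water channel of the vacuole membrane, was at 1041 ± 144 (SD, n = 3). UBQ10 (AT4G05320), a polyubiquitin gene used as a reference in expression work, was at 1550, 1405 and 1441, and MON1 (AT2G28390), a reference gene of low level, at 11.2, 10.8 and 10.2. Of 11 seed markers, none reached a mean of 1 and 6 were listed at 0 in all 3 libraries, among them the oil seed storage protein genes SESA1 to SESA4.

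Markers of other tissues were checked against the seedling label. Of 9 markers of floral organs and pollen, 2 had a mean of at least 1. These were SEP3 (AT1G24260), a MADS-box gene that acts in flower meristems, at 3.90, 5.06 and 4.43, and PI (AT5G20240), a petal and stamen identity gene, at 1.01, 1.14 and 1.22. LFY and AP1, which set floral identity, were at 0.396 and 0.210. The meristem genes STM (AT1G62360) and KNAT1 (AT4G08150) were at 3.17 and 2.67, while CLV3 was listed at 0 in all 3 libraries and WUS in 2 of 3. Of 9 epidermis and guard cell markers, with a median of 23.5, LTP1 (AT2G38540) was the highest at 1042 ± 56.7 (SD, n = 3). Guard cell markers such as FAMA (AT3G24140, 11.3) were detected. Root RNA was also present: BGLU23 (PYK10, AT3G09260), a glucosidase gene of roots and lower stems, was at 1738, 1578 and 1430, and CASP1 (AT2G36100), a gene of the root endodermis, at 8.002, 12.3 and 4.62. Of 9 root markers, 7 had a mean of at least 1, and these are set beside the variable genes further on.

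**Figure D2:**
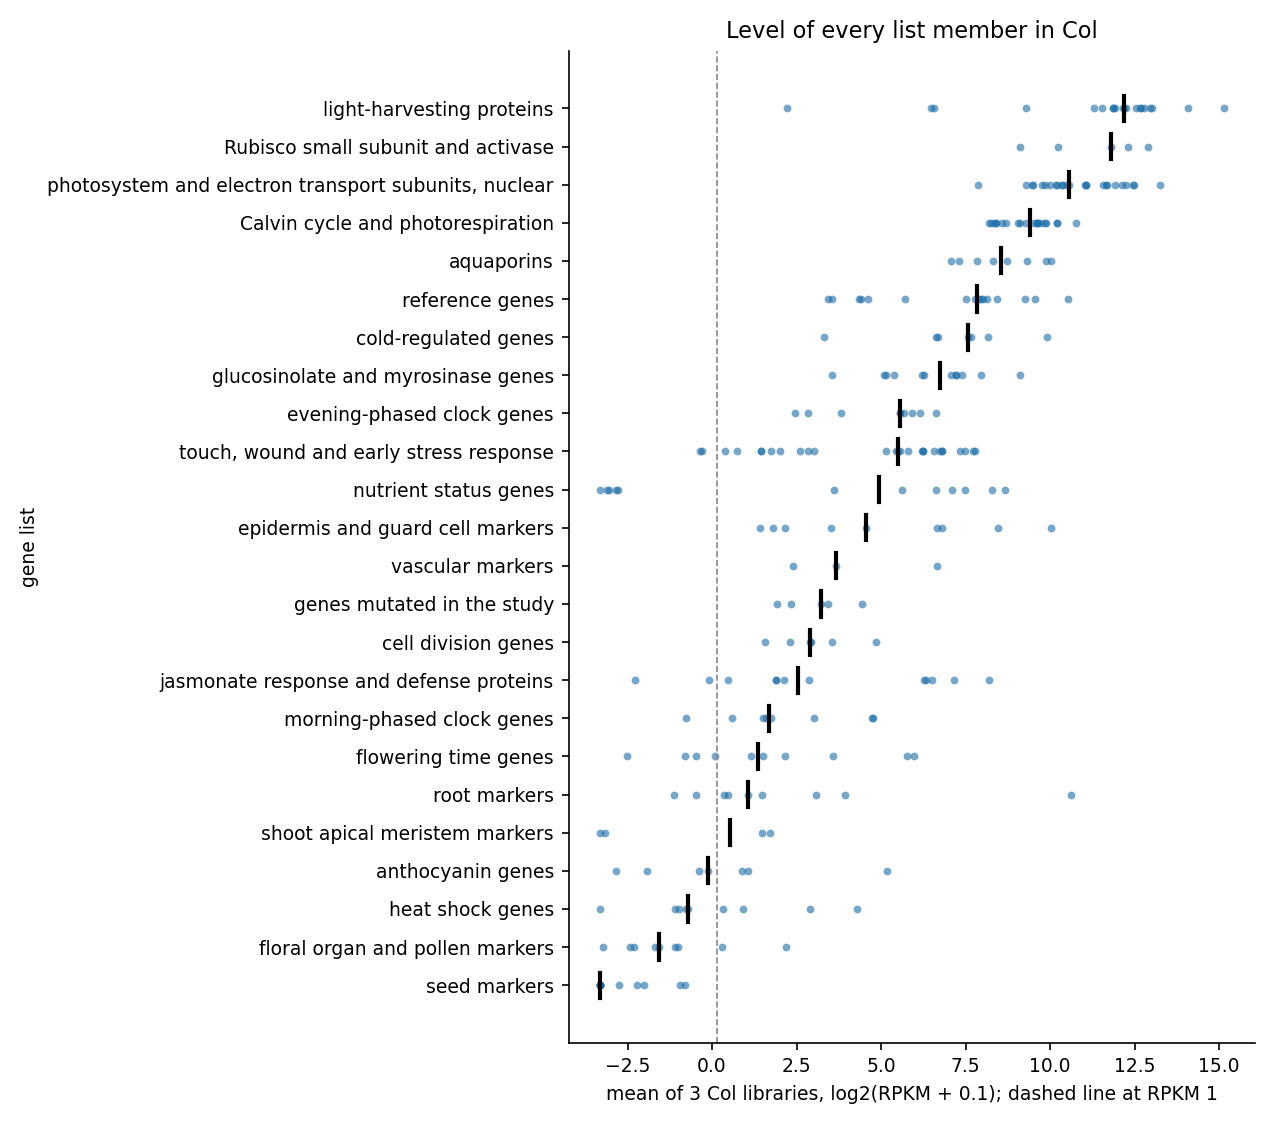
Mean of the 3 Col libraries on the scale log2(RPKM + 0.1) for every member of the lists, 1 point per gene, with a bar at the list's median. Light-harvesting genes have the highest median (4623 RPKM) and seed markers the lowest (0), and the dashed line marks an RPKM of 1.

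The circadian clock of plants is built from genes that peak near dawn, such as CCA1 and LHY, and genes that peak near dusk, such as TOC1. The morning-phased genes were low. CCA1 (AT2G46830) was at 3.28, 2.92 and 3.53 RPKM and LHY (AT1G01060) at 0.420, 0.686 and 0.369. The median of 8 morning-phased genes was 3.097, and PRR7 (AT5G02810) and LNK1 (AT5G64170) were the highest at 27.2 and 26.5. The evening-phased genes were higher, with a median of 47.5 over 9 genes. ELF4 (AT2G40080), a subunit of the evening complex, was at 92.5, 107.5 and 98.1, the photoreceptor gene FKF1 (AT1G68050) at 76.4, 64.2 and 74.4, and TOC1 (AT5G61380) at 53.3, 55.5 and 44.1. On the scale log2(RPKM + 0.1), the median SD between libraries was 0.15 for the 7 morning-phased genes with a mean of at least 1 and 0.11 for the evening-phased genes, beside 0.138 over all genes at that level. LHY, below that mean, had an SD of 0.39.

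Of the 9 evening-phased genes, 5 hold the evening element AAAATATCT, a sequence bound by CCA1 and LHY, on either strand within the window from 250 bases before to 50 bases after the annotated gene start. Of 26711 promoters of the same length, 2.86% hold it. The stretches are shown so that the element can be seen beside the levels of the genes that hold it. They are read from the TAIR10.1 genome in the direction of the gene, upstream of its start, with the element in capitals. TOC1 is at chr5:24674786-24674846, LUX (PCL1, AT3G46640) at chr3:17182963-17183023, PRR5 (AT5G24470) at chr5:8358699-8358759 on the minus strand, FKF1 at chr1:25508427-25508487 and BOA (AT5G59570) at chr5:24003819-24003879.
TOC1: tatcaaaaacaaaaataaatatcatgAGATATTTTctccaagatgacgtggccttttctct
LUX: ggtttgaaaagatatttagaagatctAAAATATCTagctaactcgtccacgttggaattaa
PRR5: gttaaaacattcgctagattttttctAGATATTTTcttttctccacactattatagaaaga
FKF1: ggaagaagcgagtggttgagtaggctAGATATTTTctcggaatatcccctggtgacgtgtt
BOA: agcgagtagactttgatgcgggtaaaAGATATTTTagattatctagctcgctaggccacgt

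The levels of these 5 genes ran from 5.32 (BOA, the lowest of the evening list) to 71.7 (FKF1), and ELF4, the highest of the list, has no such element in its window. The G-box CACGTG, bound by bHLH and bZIP factors of light signalling, is present in the same window of 6 of the 25 most abundant genes and of 7.79% of all promoters. LHCA4 (AT3G47470), LHCB4.1 and LHCB6 (AT1G15820) hold it before the gene start. These upstream stretches, at chr3:17495090-17495147 and chr1:5447973-5448030 on the minus strand for LHCA4 and LHCB6 and at chr5:208766-208823 for LHCB4.1, are shown with the G-box in capitals.
LHCA4: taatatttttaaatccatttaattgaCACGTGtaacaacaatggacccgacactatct
LHCB4.1: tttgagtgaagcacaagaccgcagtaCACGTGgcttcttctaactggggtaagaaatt
LHCB6: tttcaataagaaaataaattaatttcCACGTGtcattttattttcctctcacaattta

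LHCB1.3, the most abundant gene, has no G-box in its window. The evening element was in 0 of the 25 promoters, the element CGCGTT, which calmodulin-binding factors recognise, was in 1 (3.43% of all promoters), and TATAAA was in 10 (52.6% of all). Of the 25 most variable genes described further on, 13 have such a window, and 1 of these holds a G-box, 4 hold TATAAA and none holds the evening element or CGCGTT. A match is a match of letters and was not tested for binding.

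Nutrient, stress and hormone genes were at unlike levels. FER1 (AT5G01600), which encodes the iron store protein ferritin, was at 401, 413 and 399 RPKM, while IRT1 (AT4G19690), the iron transporter gene of iron-starved roots, was at 0.057, 0.031 and 0.031, and BHLH38 was listed at 0 in all 3. The nitrate reductase genes NIA2 (AT1G37130) and NIA1 (AT1G77760) were at 308 ± 36 and 99.1 ± 3.36 (SD, n = 3), and the nitrate transporter gene NRT2.1 was at 0.073 or below. Of 9 heat shock genes, 4 had a mean of at least 1 and HSP21 was listed at 0 in all libraries. KIN2 (AT5G15970), a cold and dehydration gene, was at 794, 899 and 1171. Touch and wound genes were well detected, with 25 of 27 at a mean of at least 1. XTH22 (TCH4, AT5G57560), a cell wall enzyme gene induced by touch, was highest at 249, 278 and 127. The myrosinase gene TGG1 (AT5G26000), which acts in mustard oil defense, was at 550 ± 46.1 (SD, n = 3).

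Among flowering time genes, SOC1 (AT2G45660), an integrator of flowering signals, was at 51.2, 51.4 and 60.3, and SVP (AT2G22540), a MADS-box repressor, at 56.9, 65.3 and 64.6. SPL3 (AT2G33810), a gene of the age pathway, was at 11.9, 9.14 and 14.7, and TSF at 0.075. Cell division genes were low in the bulk, with a median of 7.42 over 6 genes, led by KN (AT1G08560), a syntaxin gene of the forming cell plate, at 28.8 ± 1.27 (SD, n = 3).

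Protein-coding genes of the nuclear genome made up 97.9, 99.1 and 99.03% of the summed RPKM. Of 3911 genes annotated as pseudogenes, 62 (1.59%) had a mean of at least 1. Of another 926 annotated as transcribed pseudogenes, 52 (5.62%) did. The retroposon SADHU1-1 (AT2G10410) was the highest at 62.8, 79.4 and 75.9. Of 224 lncRNA genes 61 reached that level, led by AT4G38932 at 52.1, 77.4 and 76.1, and of 178 miRNA precursor genes 16 did, led by MIR414 (48.7, 49.3 and 45.7). The precursor of miR399, MIR399d (AT2G34202), was at 8.91, 14.3 and 8.73. The 4 nuclear ribosomal RNA genes summed to 7436, 2197 and 2553, and 133 chloroplast-encoded genes to 5613, 1257 and 1682. Both sums were highest in replicate 1. The 146 mitochondria-encoded genes summed to 312, 289 and 285.

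The spread between Col libraries was taken as the SD of log2(RPKM + 0.1) over the 17728 genes with a mean of at least 1. Its median was 0.138, and the pairs of libraries had Pearson correlations of 0.977 to 0.980 and Spearman correlations of 0.981 to 0.984 across these genes, which share their libraries and are no replicates. Over genes with a mean of at least 1 in the genotype itself, the median was 0.146 in hda6-6, 0.148 in hda5-1 and 0.193 in hda9-1. Col thus had the lowest of the 4 genotypes, a difference that was not tested.

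Spread fell with level up to the bin of 30 to 100 RPKM, was about the same at 100 to 1000 and was larger again above 1000. The median SD was 0.222 for genes with a mean of 1 to 2, 0.138 at 5 to 10, 0.107 at 30 to 100 and 0.107 at 100 to 1000, and 0.136 for the 85 genes of 1000 and above. Counting error alone, computed from the estimated reads, would give 0.159, 0.070, 0.029, 0.016 and 0.0049 in these bins. At an RPKM of 1 to 2, where the median gene had an estimated 58.8 reads, the computed counting error was thus below the spread measured, and from 100 on it was far below it. PCR copies cannot be told from separate molecules here, so this computed error is a lower limit.

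**Figure D3:**
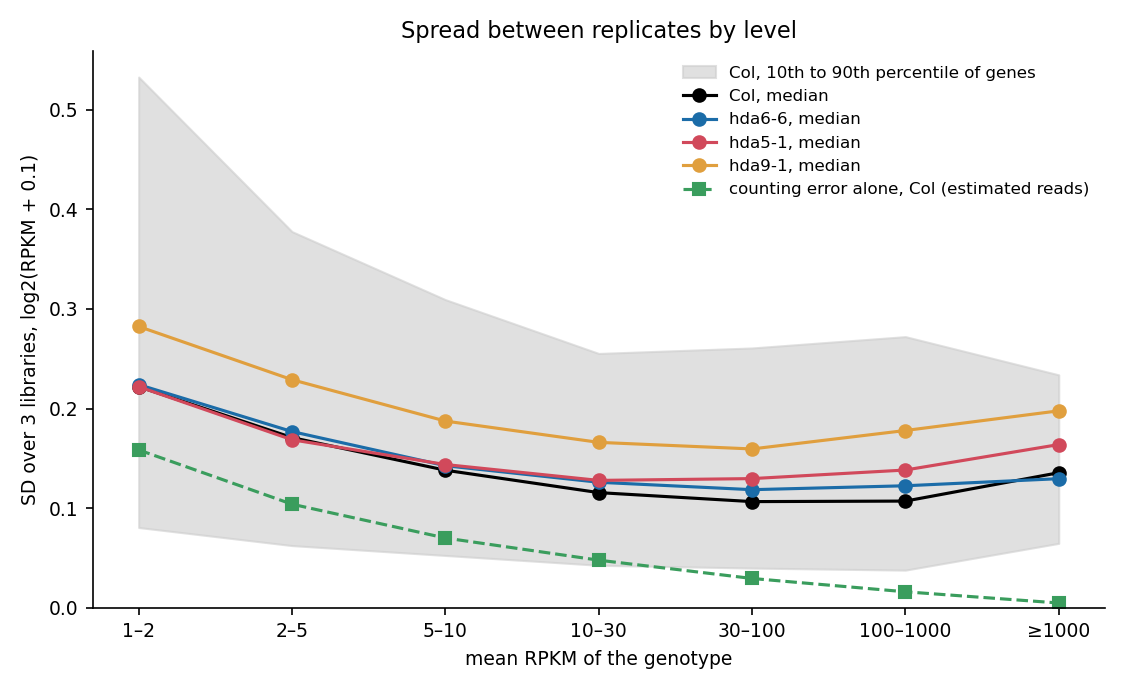
SD over 3 libraries on the scale log2(RPKM + 0.1), by bins of the mean RPKM: median of genes for Col, hda6-6, hda5-1 and hda9-1, the 10th to 90th percentile for Col in grey, and the value counting error alone would give in Col. The Col median falls from 0.222 to 0.107 and ends at 0.136, while the counting line falls from 0.159 to 0.0049.

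The 10 most stable genes above a mean of 100 RPKM include genes of chromatin, ribosomes and carbon metabolism. HTA9 (AT1G52740), which encodes the histone variant H2A.Z, was at 185.1, 184.5 and 184.3. A ribosomal protein L6 gene (AT1G74060) was at 152.1, 152.3 and 151.6, RPL27AB (AT1G23290), another ribosomal protein gene, at 250.6, 250.9 and 252.2, and the sugar transporter gene STP1 (AT1G11260) at 318.0, 320.3 and 320.2. The others of the 10 were AT5G58330, of the lactate/malate dehydrogenase family, the ribosomal protein gene AT1G67430, the cystatin gene CYSB, the Calvin cycle regulator gene CP12-1 (1335, 1339 and 1320), DHS2 of the shikimate pathway and the glucosyltransferase gene UGT75B1. UGT75B1 was the 10th with an SD of 0.0120 and AT3G58730, for a subunit of the vacuolar proton pump, the next with 0.0122. The ranking itself picks the closest values among 1093 genes. The 16 reference genes had a median SD of 0.1003. UBQ5 (AT3G62250) was the steadiest at 246.8, 253.8 and 247.5, while GAPC1 (AT3G04120) ranged from 306.8 to 395.3.

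Among the 17728 genes, 666 (3.76%) differed 2-fold or more between the highest and the lowest library, and 138 differed 4-fold or more. In the other genotypes the genes were those with a mean of at least 1 in that genotype. The number was 464 of 18067 (2.57%) in hda6-6, 694 of 17794 (3.90%) in hda5-1 and 1016 of 17716 (5.73%) in hda9-1. The 666 genes were spread unevenly over the libraries: replicate 3 was the one apart and low in 287 and high in 45, replicate 2 was high in 155 and low in 34, and replicate 1 was high in 67 and low in 78. Without replicate 3 the count was 247, and without replicate 2 it was 325. Of the 83 chloroplast-encoded genes with a mean of at least 1, 43 (51.8%) passed 2-fold. No gene of the light-harvesting, photosystem, Calvin cycle, reference, aquaporin or clock lists did.

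The 25 most variable genes, ranked by SD among the 11646 with a mean of at least 5, fall into 3 kinds. Among them, 9 were listed at 0 in 1 or 2 libraries. Of these, 3 are ribosomal RNA genes of the chloroplast: ATCG00920 was at 1796, 0 and 581 RPKM, ATCG01180 at 879, 0 and 0, and ATCG01210 at 449, 410 and 0. In replicate 2 ATCG00920 was at 0 while ATCG01210 was not, and in replicate 3 the reverse held. The chloroplast-encoded gene ATCG00950, outside the 25, was at 1507, 386 and 549. Whether reads were counted for one chloroplast gene in place of another was not tested. The other 6 of the 9 are nuclear genes that neighbour, overlap or copy a gene that moved the other way. UBQ6 (AT2G47110), a ubiquitin fusion gene, was listed at 0 in replicate 1 and at 171.7 and 169.8 in replicates 2 and 3. The adjoining gene AT2G47115, which starts just beyond its end on chromosome 2, was at 132.1 in replicate 1 and at 73.2 and 72.4 in the others.

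PGLP1 (AT5G36700), which encodes the phosphoglycolate phosphatase of photorespiration, was at 16.6, 31.3 and 0, and its copy AT5G36790, whose coding sequence of 1089 bases is 100% identical, at 93.4, 70.7 and 112. The sum of both was 110.0, 102 and 112. AT2G24945 was at 22.2, 0 and 24.1 beside MAPR2 (AT2G24940) at 22.1, 48.7 and 23.9, with sums of 44.3, 48.7 and 47.99. AT3G02468 was at 0, 177 and 0 beside SAMDC (AT3G02470), a polyamine synthesis gene, at 392, 285 and 406. AT1G48598 was at 16.9, 0 and 0 beside PMEAMT (AT1G48600), a methyltransferase gene, at 32.97, 47.8 and 51.3. AT2G28671 was at 3.93, 11.2 and 0, and ESB1 (AT2G28670), the dirigent gene that it overlaps, was at 4.07, 0 and 5.20. AT1G48598 and PMEAMT together were at 49.9, 47.8 and 51.3. The sums of the other pairs were less level. UBQ6 and AT2G47115 together were at 132, 245 and 242, AT2G28671 and ESB1 at 8.001, 11.2 and 5.20, and AT3G02468 and SAMDC at 392, 462 and 406. In each pair 1 gene was high where the other was low, and whether reads were counted for one gene in place of the other was not tested. UBQ6 was above 0 in all 9 libraries of hda6-6, hda5-1 and hda9-1, while AT2G24945 was at 0 in 1 library of each.

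A further 7 genes of the 25 are chloroplast-encoded and above 0 in all libraries. ATCG00020, the photosystem II reaction center protein A gene, was at 322, 49.0 and 71.4. ATCG00700, for protein N of that center, was at 16.4, 1.05 and 3.48. The ribosomal RNA genes ATCG00970 and ATCG01160 had the same values as each other (43.3, 1.72 and 1.52), as did ATCG00960 and ATCG01170 (17.7, 2.69 and 5.58). ATCG01020, a ribosomal protein L32 gene, went the other way at 2.40, 25.01 and 27.5. Replicate 1 was the highest library for 48 of the 83 chloroplast-encoded genes and the lowest for 25 of them. Over all genes with a mean of at least 1, it was the highest for 27.7% and the lowest for 40.5%.

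The nuclear ribosomal RNA genes moved with the former. AT3G41979 was at 2344, 466 and 471, AT3G41768 at 3562, 1448 and 1476 and AT2G01020 at 1529, 283 and 605. AT2G01021, a 102-base gene at chr2:6571-6672 close to AT2G01020, was at 4175, 1177 and 1686. It is annotated as protein-coding and ranked 38. The part of RNA quality or bead selection in this was not tested.

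**Figure D4:**
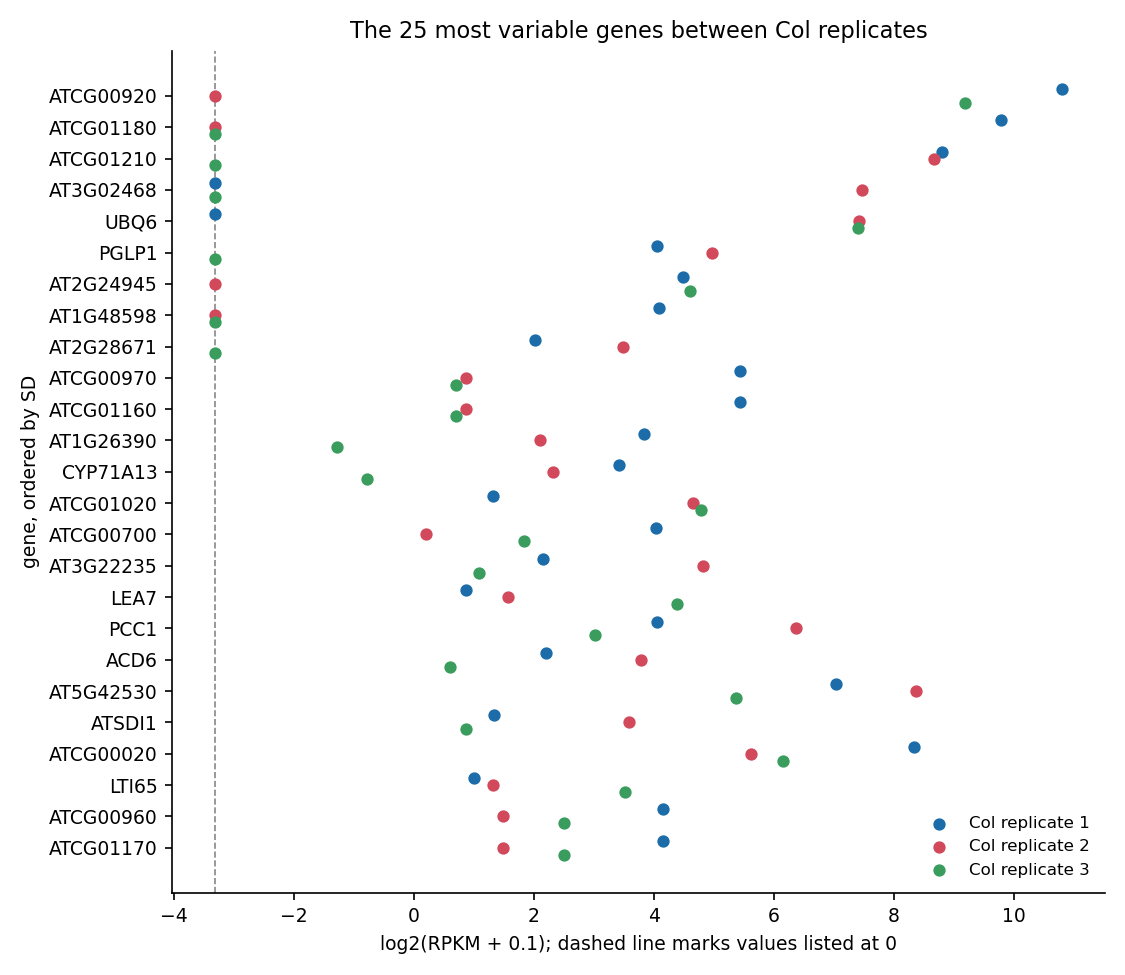
The 25 genes of largest SD (mean RPKM 5 or above), in order of SD, with 1 point per Col library on the scale log2(RPKM + 0.1). The 9 upper genes have 1 or 2 libraries listed at 0, on the dashed line, and the 16 others are above 0 in all 3.

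The last 9 of the 25 are nuclear genes above 0 in all libraries, and most are known from stress. PCC1 (AT3G22231), a pathogen-responsive gene, was at 16.6, 82.8 and 7.99. Its neighbour AT3G22235, which encodes a protein of a cysteine-rich family of stress tolerance, was at 4.35, 28.04 and 2.02. ACD6 (AT4G14400), an ankyrin gene that promotes salicylic acid defense, was at 4.51, 13.7 and 1.43, and the uncharacterized gene AT5G42530 at 132, 330 and 41.5. SDI1 (AT5G48850), a gene induced by sulfur deficiency, was at 2.42, 11.8 and 1.72. In these 5 replicate 2 was the highest and replicate 3 the lowest.

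The others split differently. CYP71A13 (AT2G30770), an enzyme gene of the defense compound camalexin, was at 10.5, 4.92 and 0.481, and AT1G26390, of the berberine bridge enzyme family, at 14.2, 4.18 and 0.313, so that both were highest in replicate 1. LEA7 (AT1G52690), for a late embryogenesis abundant protein, was at 1.73, 2.88 and 20.9, and LTI65 (AT5G52300), a dehydration gene induced by abscisic acid, at 1.91, 2.38 and 11.4, both highest in replicate 3. ATCG00960 and ATCG01170 closed the 25 at an SD of 1.35 on this scale, and SAG13 (AT2G29350), a senescence gene, was just outside at 7.78, 6.15 and 1.31 with the same rounded SD. The 16 genes of the 25 above 0 in all Col libraries had a median SD of 1.33 in hda6-6, 0.852 in hda5-1 and 1.44 in hda9-1, where the 11646 genes had 0.129, 0.132 and 0.172. Of the 16, 12, 13 and 13 passed 2-fold there, beside 1.46, 2.04 and 3.14% of the 11646 genes.

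Lists of related genes were set beside the variable genes. SDI1, PCC1, ACD6, CYP71A13, AT1G26390, LEA7 and LTI65, from the 25 most variable genes, are members of the lists named next and are counted again in them. The lists for phosphate starvation, sulfur deficiency, salicylic acid and defense, camalexin, and abscisic acid and dehydration were chosen after the values were seen, so their counts describe the pattern and do not test it. They stand beside 3.76% of all genes past 2-fold, and the libraries also differ over all genes. Of the 17728 genes, 27.7% were highest in replicate 1, 46.8% in replicate 2 and 25.5% in replicate 3, and 40.5, 19.6 and 39.8% were lowest in these libraries. Phosphate starvation genes are switched on by the factor PHR1 when phosphate is short. All 14 of them were highest in replicate 2 and lowest in replicate 3, also after median-of-ratios scaling, and 13 differed 2-fold or more. AT5G03545, annotated as expressed in phosphate starvation, was at 447, 528 and 147. The noncoding target mimic gene IPS1 (AT3G09922) was at 55.5, 75.3 and 16.6 and the phosphate sensor gene SPX1 (AT5G20150) at 149.9, 185.0 and 72.3. The ribonuclease gene RNS1 (AT2G02990) was at 13.0, 26.1 and 6.38. SQD2 (AT5G01220), which makes the sulfolipid that replaces phospholipids, was at 74.1, 114 and 55.3. The median SD of the 14 genes was 0.717 in Col, 0.794 in hda5-1, 0.345 in hda6-6 and 0.238 in hda9-1.

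Of the 14 phosphate starvation genes, 9 hold the PHR1 binding site P1BS, GNATATNC, in the window around the gene start, and 6.24% of all promoters do. Both the genes and this motif were chosen after the values were seen. The stretches that lie before the gene start are shown for 4 of them, with the site in capitals, since these genes moved together in the 3 libraries: AT5G03545 at chr5:894530-894581, SPX3 (AT2G45130) at chr2:18606171-18606230, PS2 (AT1G73010) at chr1:27466532-27466591 on the minus strand and SRG3 (AT3G02040) at chr3:350104-350163 on the minus strand.
AT5G03545: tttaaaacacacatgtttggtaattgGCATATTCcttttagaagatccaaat
SPX3: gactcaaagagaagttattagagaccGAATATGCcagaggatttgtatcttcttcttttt
PS2: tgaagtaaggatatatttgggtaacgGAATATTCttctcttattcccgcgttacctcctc
SRG3: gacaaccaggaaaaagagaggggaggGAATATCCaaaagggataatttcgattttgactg

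SPX1, SPX3 and IPS1 also belong to the nutrient status list. SPX3, a regulator of the phosphate response, was at 11.02, 18.6 and 6.77, PS2, a phosphatase gene, at 36.5, 68.7 and 20.3, and SRG3, which encodes a glycerophosphodiester phosphodiesterase, at 81.05, 127 and 42.6. IPS1, MGDC, SQD2, PAP17 and PHO1;H1 have no match in this window, though they moved in the same order.

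Genes of sulfur deficiency were ordered alike. Of 9, 8 had a mean of at least 1, and all 8 were highest in replicate 2 and lowest in replicate 3, with 6 past 2-fold. LSU1 (AT3G49580) was at 25.4, 73.7 and 18.8, BGLU28 (AT2G44460), a glucosidase gene, at 2.39, 8.49 and 0.707, and APR3 (AT4G21990), for a sulfate reduction enzyme, at 63.7, 99.7 and 45.9. The median SD was 0.564 in Col and 0.224 to 0.353 in the mutants.

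Salicylic acid and defense genes were highest in replicate 2 in 14 of 14 and lowest in replicate 3 in 12 of 14, and 10 passed 2-fold. WAK1 (AT1G21250), for a wall-associated kinase, was at 11.5, 23.7 and 3.78, the transcription factor gene WRKY70 (AT3G56400) at 27.1, 47.9 and 17.5, and LURP1 (AT2G14560) at 2.79, 10.98 and 0.420. ICS1 (AT1G74710), the isochorismate synthase of salicylic acid synthesis, varied less, at 3.83, 5.26 and 4.38. The median SD of the list was 0.903 in Col, 0.313 in hda6-6, 0.541 in hda5-1 and 0.813 in hda9-1. PR1 was at 1.396 and 2.43 and listed at 0 in replicate 3. The plant defensin genes PDF1.2A (AT5G44420, 1.44, 8.51 and 0.910) and PDF1.2B (AT2G26020, 1.62, 9.09 and 2.09) were also highest in replicate 2. Over the touch, wound and early stress list, 20 of 25 genes were highest in replicate 2 (46.8% of all genes) and 19 were lowest in replicate 3 (39.8% of all genes), and 8 (32%) passed 2-fold. WRKY40 (AT1G80840) was at 48.1, 72.01 and 20.1 and WRKY33 (AT2G38470) at 50.8, 88.9 and 25.7. ERF5 (AT5G47230) stood at 110.1, 117 and 107.5 and JAZ10 (AT5G13220) at 4.06, 3.77 and 3.89. The 3 members highest in replicate 3 were CBF1 (AT4G25490, 0.909, 1.17 and 1.53), CBF2 (AT4G25470, 2.60, 2.49 and 4.56) and CBF3 (AT4G25480, 4.43, 6.01 and 10.8). CBF3 is among the 8 past 2-fold.

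Camalexin and related genes were highest in replicate 1 in 6 of 6, and 5 passed 2-fold. PAD3 (AT3G26830), the last enzyme gene of camalexin synthesis, was at 29.9, 22.6 and 5.23. CYP71A12 (AT2G30750), a near relative of CYP71A13, was at 19.3, 17.5 and 14.6. The median SD of the camalexin list was 1.255 in Col, 0.669 in hda6-6, 1.19 in hda5-1 and 1.62 in hda9-1. Abscisic acid and dehydration genes ran the other way, with 8 of 9 highest in replicate 3, 8 lowest in replicate 1 and 6 past 2-fold. RAB18 (AT5G66400), a dehydrin gene, was at 213, 197 and 439, and LTP3 (AT5G59320), a lipid transfer protein gene, at 24.5, 45.2 and 69.1. The median SD of this list was 0.697 in Col, 1.03 in hda6-6, 0.330 in hda5-1 and 0.469 in hda9-1. Of 7 cold-regulated genes, 6 were highest in replicate 3, and KIN1 (AT5G15960) was at 5.03, 7.502 and 16.8. RD29A belongs to both of these lists.

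The photosynthesis lists leaned to different libraries, by small amounts. Of 20 light-harvesting genes 12 were highest in replicate 3 and none was lowest there, and of 25 photosystem and electron transport genes 20 were highest in replicate 3 and none was lowest there. Their mean deviations in replicate 3 were 0.14 and 0.102 on the log2 scale. The 5 genes of Rubisco small subunits and activase had a mean deviation of -0.0072 in replicate 3. Of the 20 genes of the Calvin cycle and photorespiration, 13 were highest in replicate 1 and 5 in replicate 3. Their mean deviations in these libraries were 0.064 and -0.013. Over all genes with a mean of at least 1, 27.7% were highest in replicate 1. In replicate 3, 25.5% of them were highest and 39.8% lowest, so the 5 of 20 lie near the share of all genes.

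Root markers are set beside these lists as markers of another tissue. All 7 with a mean of at least 1 were lowest in replicate 3 (6 of 7 after median-of-ratios scaling), as were 39.8% of all genes. Of these 7, 3 were highest in replicate 1 and 4 in replicate 2 (27.7 and 46.8% of all genes). Their mean deviation in replicate 3 was -0.597. Phosphate starvation genes stood there at -0.777, but abscisic acid and cold-regulated genes at 0.815 and 0.315. The root hair genes EXPA7 (AT1G12560) and PRP3 (AT3G62680) were at 3.41, 3.40 and 1.201 and at 16.1, 20.8 and 8.23, and the summed RPKM of the 9 markers was 1771, 1620 and 1449. Both markers of the root tip were below a mean RPKM of 1. PLT1 (AT3G20840) was at 0.357, 0.454 and 0.258, and WOX5 (AT3G11260) went the other way at 0.396, 0.308 and 1.16. Floral markers summed to 5.70, 7.75 and 7.51 and vascular markers to 99.1, 124 and 130. The part of tissue share in the phosphate, defense or camalexin genes was not tested.

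**Figure D5:**
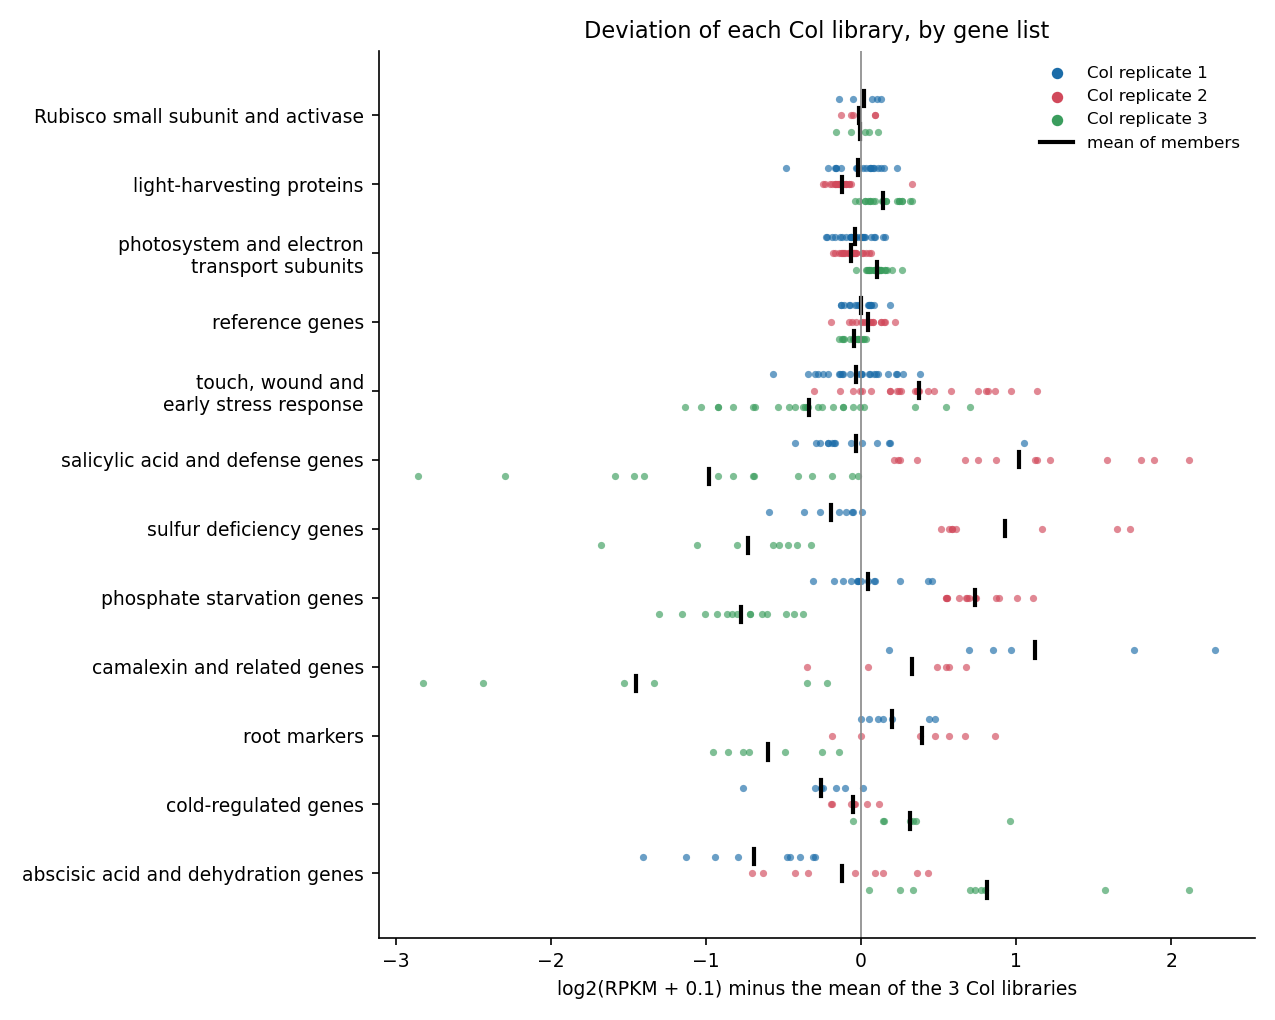
Deviation of each Col library from the mean of the 3 on the scale log2(RPKM + 0.1), for the members of 12 gene lists with a mean RPKM of at least 1, with 1 point per gene and library and a bar at the mean of the members. Rubisco, photosystem and reference genes lie near 0, phosphate starvation genes lie at 0.732 in replicate 2 and -0.777 in replicate 3 on average, and abscisic acid and dehydration genes lie at 0.815 in replicate 3.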

How the data were processed

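RNA of 14-day-old plants was sequenced on the Illumina platform, and the 3 Col libraries are described here. The authors called bases with CASAVA 1.8, aligned them to the TAIR10 genome using Bowtie2 (its version is not given in the sources used here), and deposited 1 RPKM value per gene and library. No counts were used, and the RPKM values were not rescaled. The libraries hda6-6, hda5-1 and hda9-1 served for spread only, and the 2 libraries of fld-6 and fve-4 were not used. The methods state 3 biological repeats for Col and hda6-6.

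With 1 group and no contrast, no test was run. Values were summarised as mean ± SD and as log2(RPKM + 0.1), with a filter of a mean RPKM of at least 1 for spread. Named by rule were the 25 genes of highest mean, the 25 of largest SD at a mean of at least 5, the 10 of smallest SD at a mean of at least 100, the genes next to these ranks, and list members. Genes outside this rule were chosen after their values were seen, as were 5 added lists and the P1BS motif. The members and all lists were chosen with earlier results of these data known. Of the gene IDs, 32835 were matched to the RefSeq annotation of TAIR10.1 and 767 were not. Chloroplast gene descriptions are from the study's tables. Mapped reads were estimated from RPKM steps, and counting error from these reads and the exon lengths of TAIR10.1, which need not be those of the authors. Alternatives were the pseudocount, filters, scalings and leaving out each library. The code ran in Python 3.11.15 with pandas 2.3.3 and numpy 2.4.6, drew figures in matplotlib 3.10.9, and was tested on simulated data.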

Additional observations from a re-analysis of the deposited data

How the results depend on the processing

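Of 24 lists, the 5 added ones left out, seed markers had no member at a mean of at least 1 and so no median SD. Among the others, some with only 2 or 3 such members, 14 had a median SD above that of all genes. Under each alternative run, this number and that of genes above the detection threshold in all Col libraries stayed within 1.5 times the value reported. The share of the 10 most abundant genes stayed within 1 SD of its value as reported. The median SD was 0.120 with a pseudocount of 1, 0.172 with no filter on level, 0.112 for genes with a mean of at least 10, and 0.105 to 0.117 when 1 library was left out, where an SD over a pair of libraries replaces one over 3. The number of genes past 2-fold was 412 with a pseudocount of 1, 250 at a mean of at least 5, 2519 with no filter and 247 to 451 when 1 library was left out. In alternatives chosen after the data were seen, it was 609 without organelle and ribosomal RNA genes and 633 without genes listed at 0. The mean Pearson correlation was 0.985 with a pseudocount of 1 and 0.983 with no filter, against 0.978. Of the 25 most variable genes, 21 remained with a pseudocount of 1, 21 by the coefficient of variation, 24 after median-of-ratios scaling, 8 at a mean of at least 20, 13 to 16 when 1 library was left out, and 16 without genes listed at 0. Of the 25 most abundant, 24 or 25 remained under each alternative run. No paired analysis was possible because 1 group enters and no result comes from a test. Low RPKM values rest on few reads, and 2694 genes were listed at 0 in 1 or 2 libraries.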
